A study of Homo sapiens with 4 samples.

Results

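The genes described here are 38 genes of DNA replication and of the step from G1 into S phase, taken from the deposited table by gene symbol: replication origin genes, replication fork genes and targets of the E2F transcription factors. All 38 were listed among the 19775 genes of the table. The series measured poly(A)-selected RNA in wild-type cells of H1, an established line of human embryonic stem cells, to ask about the part of the kinase ERK5 in the balance of growth signals in pluripotent cells. The labels give 4 samples of this 1 line in 2 groups, both kept for 12 h in E8, a defined medium with insulin, FGF2 and TGFβ: 2 without further treatment and 2 with 1 µM XMD892, an ERK5 inhibitor. Of the 9 columns of the table, 2 carry the treatment, time and replicate number of a labelled sample, and both are XMD892 libraries. The untreated columns are named for another culture time than the untreated samples' labels, so XMD892 was not compared with E8 here. Another column is named for XMD892 at this time but for a replicate that no label gives, and it was not used. All values given are therefore levels in XMD892-treated cells with their spread between replicate 1 and replicate 2, and none measures what the compound did. Whether these libraries came from separate cultures is not stated, so the spread may be technical.

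DNA replication is prepared in G1, when the origin recognition complex, CDC6 and CDT1 load the ring-shaped MCM2 to MCM7 helicase on DNA, a step called licensing. In S phase CDC45 and the GINS complex join the ring to make the active helicase, and polymerases copy the strands while the clamp PCNA, loaded by the RFC complex, holds them on DNA. Many of these genes are transcribed from promoters bound by E2F factors, which are held in check by the retinoblastoma protein until cyclin-dependent kinases release them. Human embryonic stem cells are known for a short G1 phase and for a large share of cells in S phase.

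The promoters of the genes are shown first, because the list was drawn up partly as genes driven by E2F and its letters can be read in them. RefSeq promoters (GRCh38.p14, 250 bases before to 50 after the gene start) were found for 35 of the 38 genes, and not for MCM4, MCM5 and GINS4. Genes with a mean normalized count of 10 or more, 16148 in all, are called tested genes, and the motif shares are over the 10939 of them with a promoter. An E2F motif was searched as TTTCGCGC, TTTGGCGC, TTTCCCGC or TTTGCCGC on both strands. It was found in 20 of the 35 genes (57.1%), against 6.50% of the tested genes and 3.99% of all 27305 genes with one. Since E2F targets were part of the choice, this share describes the list and tests nothing. Per promoter, the shares were 46.5% of 43 for the listed genes and 4.71% of 16058 for the tested genes. The box CCAAT, which NF-Y binds, was found in 21 of the 35 genes, against 42.7% of the tested genes. The GC box GGGCGG was found in 77.1% of the listed genes and 77.4% of the tested genes. Counted per promoter, its shares were 76.7% and 65.7%. The motifs can overlap each other. A match is a description of letters and not a measured site.

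The following stretches carry E2F matches (capitals, on either strand), with 12 flanking bases on each side. They come from genes of licensing, helicase activation, the clamp, the polymerases and G1/S control, and not every match is shown. Those shown lie close to the gene start, while MCM3 and MCM7 also held matches that began at -174 and -187 bases from it. In MCM2 the motif is a palindrome that reads as a match on both strands. E2F1 also held a match that began at -33 bases, most of which lies in lower case in the flank shown.

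CDC6, chr17:40287874-40287905, plus strand: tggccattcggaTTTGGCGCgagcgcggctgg
MCM2, chr3:127598401-127598436, plus strand: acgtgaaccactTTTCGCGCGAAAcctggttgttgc
MCM3, chr6:52284727-52284758, minus strand: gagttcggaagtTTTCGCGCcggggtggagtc
MCM7, chr7:100101387-100101418, minus strand: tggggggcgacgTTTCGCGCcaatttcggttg
GINS1, chr20:25407666-25407697, plus strand: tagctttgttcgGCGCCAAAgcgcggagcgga
PCNA, chr20:5126662-5126693, minus strand: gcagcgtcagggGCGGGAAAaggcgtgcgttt
POLA2, chr11:65261897-65261928, plus strand: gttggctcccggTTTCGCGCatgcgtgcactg
POLE, chr12:132687341-132687372, minus strand: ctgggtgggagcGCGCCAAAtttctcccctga
CDC25A, chr3:48188442-48188473, minus strand: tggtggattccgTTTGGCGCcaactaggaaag
E2F1, chr20:33686386-33686417, minus strand: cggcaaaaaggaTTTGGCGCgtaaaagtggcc
E2F2, chr1:23531256-23531287, minus strand: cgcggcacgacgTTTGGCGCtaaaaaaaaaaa

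The promoter of MCM6 held the most matches, 4 in all, as a pair of 12-base stretches that each match on both strands, with a CCAAT box (ATTGG on this strand) after each. The 170 bases before its start are chr2:135876444-135876613, minus strand, with both kinds of match in capitals.

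MCM6: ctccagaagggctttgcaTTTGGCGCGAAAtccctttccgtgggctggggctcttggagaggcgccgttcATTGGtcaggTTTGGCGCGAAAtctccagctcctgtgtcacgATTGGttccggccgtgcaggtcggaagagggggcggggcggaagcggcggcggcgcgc

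Of the 27 E2F matches, 21 began no more than 100 bases before the start. E2F1, MCM2, MCM3 and MCM7 held 2 matches each and 15 genes held 1. The 15 genes whose window held none of these letters were CDC45, CHAF1A, CHAF1B, FEN1, MCM10, ORC1, ORC6, POLD1, PRIM1, RFC2, RFC4, RFC5, RRM1, RRM2 and SLBP, and nothing follows from this about E2F at those genes. The median level was 24.99 RPKM (reads per kilobase of exon, scaled to the library's total reads) in the 20 genes with a match and 24.98 RPKM in the 15 without, on a range of 1.46 to 196 and of 8.75 to 57.1 RPKM.

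**Figure D1:**
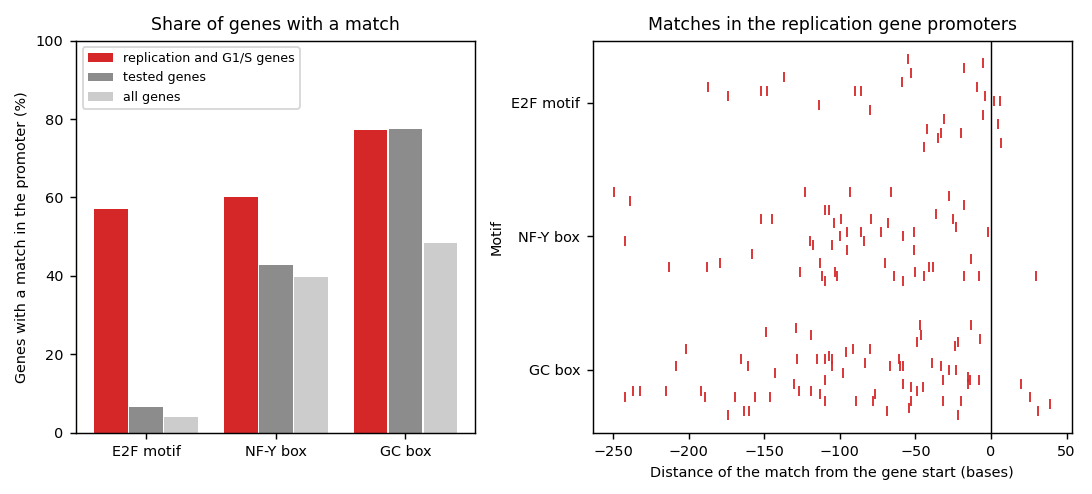
Left: share of genes (percent) with a match in the promoter for each motif, for the 35 replication and G1/S genes, the 10939 tested genes and all 27305 genes with a promoter; the NF-Y box is the CCAAT box. Right: each tick is a match in a promoter of the 35 genes, by its distance in bases from the gene start, 1 height per gene within a motif. The E2F motif differs most between the sets, with 57.1% against 6.50%.

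The cells carried the markers of the labelled type. All 8 pluripotency markers examined reached 1 RPKM in both libraries, among them POU5F1 with 734 and 1430 RPKM. None of 3 endoderm markers was listed. Of 3 mesoderm markers, MIXL1 had 0.82 and 2.54 RPKM in replicates 1 and 2, EOMES had 0.10 and 0.11 RPKM, and TBXT was not listed. Not all markers of other cell types were low. The neural marker NES had 170 and 89.7 RPKM and the fibroblast marker THY1 had 33.7 and 64.2 RPKM. The rest of these 2 lists is given further below. The sum of recovered reads was 18528689 in replicate 1 and 20217648 in replicate 2. The 38 genes took 0.560% and 0.471% of these reads.

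All 38 genes were expressed, with at least 1 RPKM in both libraries. Their median of 25.4 RPKM compares with 2.31 RPKM for the table as a whole, which includes barely expressed genes. It compares with 7.89 RPKM for the 10045 genes within the list's range of mean normalized count. Their mean levels ran from 1.46 ± 0.378 RPKM for E2F2 to 196 ± 8.49 RPKM for PCNA (SD, n = 2). PCNA was above 99.03% of the protein-coding genes in the table and E2F2 above 31.1%. Spearman's rho between the libraries over the 38 RPKM values was 0.974, so the order of the genes was nearly the same in both. Merged exon lengths of GENCODE release 29 were used, so a gene with a long, rarely used isoform reads low. With the longest transcript as the length, the median was 31.3 RPKM.

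**Figure D2:**
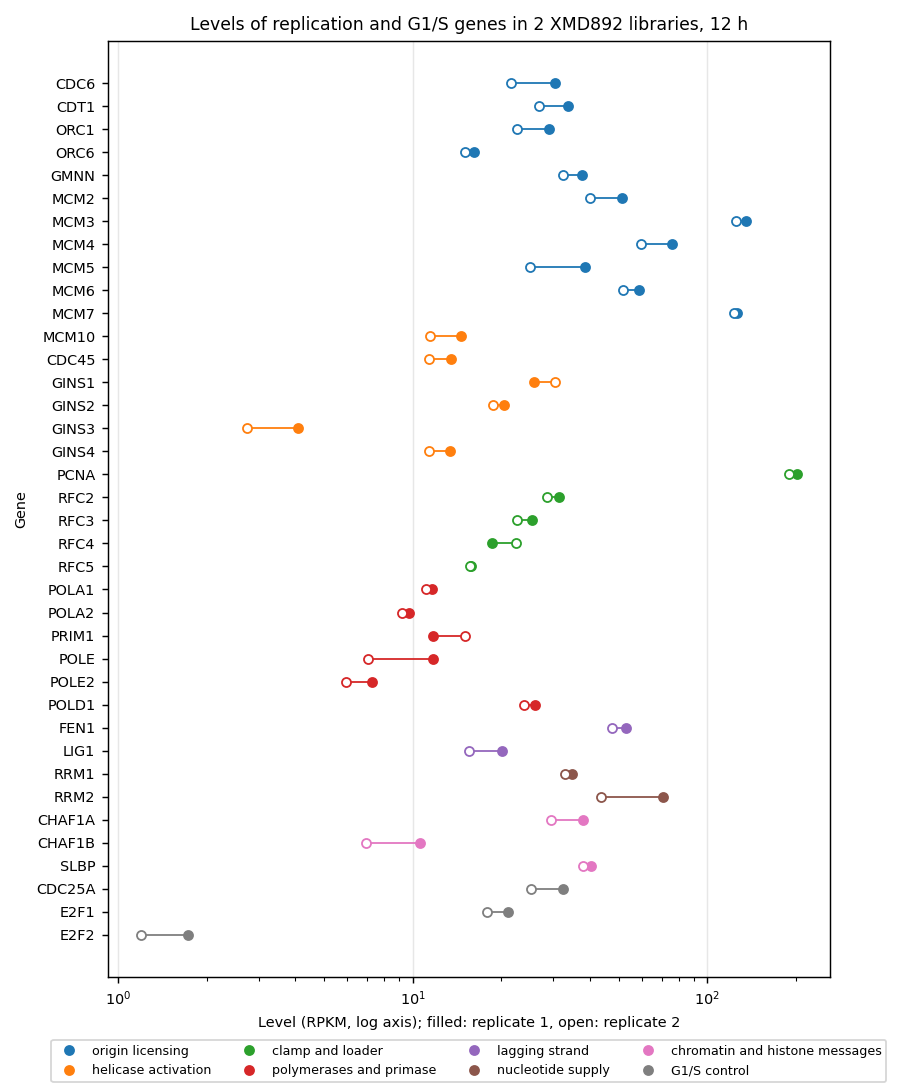
Levels in RPKM (log axis) of the 38 genes in XMD892 replicate 1 (filled) and replicate 2 (open), ordered and coloured by role, with a line that joins the libraries. PCNA, MCM3 and MCM7 are the highest and E2F2 and GINS3 the lowest.

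The genes of origin licensing were high and had most of the reads of the group. MCM3 and MCM7 led the 6 helicase subunits, at 130.3 ± 7.295 and 125 ± 2.198 RPKM (SD, n = 2), and they did not differ beyond their spread. MCM4 stood at 67.8 ± 11.4, MCM6 at 55.3 ± 4.83, MCM2 at 45.8 ± 8.14 and MCM5 at 31.8 ± 9.61 RPKM. With the longest transcripts as the length, MCM4 stood at 113, MCM6 at 61.0, MCM2 at 62.0 and MCM5 at 50.7 RPKM. The order of MCM6 and MCM2 therefore depends on the isoform assumed. Each ring holds 1 copy of each subunit, but the transcripts were unequal: the ratio of MCM7 to MCM5 was 3.28 in replicate 1 and 4.94 in replicate 2 per exon length, and 3.50 with the longest transcripts. The ratio of MCM7 to MCM3 was 0.93 and 0.98, and turned to 1.196 with the longest transcripts. MCM7 (chr7:100092728-100101940, minus strand, GRCh38) also hosts a microRNA cluster in an intron, and MCM5 is on another chromosome (chr22:35400063-35425430, plus strand, GRCh38).

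Between the libraries, the licensing genes leaned toward replicate 1. Normalized counts, in which the authors' size factor takes out sequencing depth, were 5626 and 3908 for MCM5 in replicates 1 and 2, the widest gap in this role, 1.44-fold higher in replicate 1. CDC6, the ATPase that recruits the helicase to origins, had 3349 and 2557 normalized counts and was 1.31-fold higher in replicate 1. Both are above replicate 2 by more than the counting error of independent reads. The exact 95% counting interval of the log2 ratio ran from -0.59 to -0.46 for MCM5 and from -0.47 to -0.31 for CDC6. MCM2 had 5025 and 4186, MCM4 had 10522 and 8888 and MCM6 had 4811 and 4561 normalized counts, also higher in replicate 1. MCM3, at 9837 and 9748, had an interval that included equal levels. MCM7, at 11019 and 11529, was the 1 licensing gene of 11 that was higher in replicate 2 on this scale, by 1.05-fold, and it was lower there with total reads or quantile normalization as the scale.

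CDT1, which brings the helicase to origins, stood at 30.3 ± 4.89 RPKM (SD, n = 2), close to its inhibitor GMNN (geminin) at 34.9 ± 3.68 RPKM. In replicates 1 and 2, normalized counts were 2240.3 and 1911 for CDT1, and 1845 and 1704 for GMNN. Both genes were higher in replicate 1, CDT1 by 1.17-fold and GMNN by 1.08-fold. The ratio of CDT1 to GMNN was 0.90 and 0.83 per merged exon length, and 0.46 with the longest transcripts, so it depends on the isoform assumed. ORC1, the ATPase subunit of the origin recognition complex that comes and goes with the cell cycle, had 1818 and 1517 normalized counts, and ORC6 had 1385 and 1381. ORC1 was 1.198-fold higher in replicate 1, while ORC6 differed by less than its counting interval.

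Among the subunits of the complex outside the list, ORC2 stood at 11.3 ± 0.766, ORC3 at 16.3 ± 0.906, ORC4 at 6.51 ± 0.2703 and ORC5 at 7.92 ± 1.79 RPKM (SD, n = 2). ORC1, at 25.7 ± 4.55 RPKM, was the highest of the 6 and ORC4 the lowest per merged exon length, with ORC6 at 15.6 ± 0.8002 RPKM. The ratio of ORC6 to ORC1 was 0.56 and 0.67 in replicates 1 and 2 but 1.42 with the longest transcripts. ORC3 was 1.16-fold higher in replicate 2, with 1148 and 1332 normalized counts, and ORC5 was 1.29-fold higher in replicate 1, with 681 and 529.

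The genes that turn the loaded ring into the active helicase were lower, with a median of 12.7 RPKM over 6 genes. GINS1 stood at 28.2 ± 3.29, GINS2 at 19.6 ± 1.23, GINS4 at 12.4 ± 1.44 and GINS3 at 3.41 ± 0.947 RPKM (SD, n = 2). These 4 proteins form 1 complex in equal numbers, and their transcripts spanned a ratio of GINS1 to GINS3 of 6.33 in replicate 1 and 11.1 in replicate 2. GINS3 (chr16:58295080-58406144, plus strand, GRCh38) shares 10.9% of its exon bases with an antisense gene. CDC45 stood at 12.4 ± 1.53 and MCM10, a scaffold needed to fire the origin, at 13.02 ± 2.24 RPKM.

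The members of the GINS complex did not differ between the libraries in the same direction. GINS1 had 2090.0 and 2646 normalized counts and was 1.27-fold higher in replicate 2, with an interval from 0.25 to 0.43 on the log2 scale. GINS3 had 414 and 299 and was 1.39-fold higher in replicate 1, with an interval from -0.70 to -0.25. The interval of GINS2, at 1330.0 and 1305, included equal levels. GINS4, at 1461 and 1329, and MCM10, at 1584 and 1331, were higher in replicate 1, and CDC45, at 764 and 688, had an interval that included equal levels. Reads on GINS4 can come from antisense genes that share 21.2% and 2.39% of its exon bases, since the strand setting of the counting is not given in the sources used here. The former antisense gene had only 16 and 5 reads, against 1361 and 1259 for GINS4, and the latter was not listed.

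PCNA, the sliding clamp, was the most abundant transcript of the 38 per exon length, with 202 and 189.7 RPKM. Its gene is at chr20:5114953-5126626, minus strand, GRCh38, and 3 named pseudogenes could share its reads. Its normalized counts were 5901 and 5953, and their interval included equal levels. RPKM is scaled by total reads and normalized counts by the authors' size factor, which is why the library with the higher value is not the same on both. The small subunits of its loader stood lower: RFC2 at 29.99 ± 1.91, RFC3 at 24.05 ± 2.003, RFC4 at 20.5 ± 2.76 and RFC5 at 15.8 ± 0.0955 RPKM (SD, n = 2). RFC1, the large subunit and outside the list, stood at 19.6 ± 2.07 RPKM. The order within the complex is not firm, because the ratio of RFC4 to RFC3 was 0.73 and 0.99 in the libraries and 1.47 with the longest transcripts.

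The clamp and its loader leaned toward neither library, with a median log2 difference of 0.01. RFC4 stood apart, with 1105 and 1434 normalized counts and a 1.298-fold higher value in replicate 2. RFC2 had 1378 and 1351, RFC3 had 1456 and 1388 and RFC5 had 1023 and 1088 normalized counts, and the intervals of all 3 included equal levels. RFC1, with 2425 and 3021, was 1.25-fold higher in replicate 2. RFC4 shares 0.70% of its exon bases with EIF4A2 on the other strand, a far more abundant gene with 9204 and 12880 reads.

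Per merged exon length, the polymerase genes were the lowest role as a group, with a median of 10.4 RPKM over 6 genes. POLD1, the catalytic subunit of the lagging strand polymerase delta, stood at 24.98 ± 1.53 RPKM (SD, n = 2). POLE, the catalytic subunit of the leading strand polymerase epsilon, stood at 9.37 ± 3.27 and its partner POLE2 at 6.62 ± 0.976 RPKM. With the longest transcripts as the length, POLE stood at 19.4 and POLE2 at 10.9 RPKM, so these levels depend on the isoform assumed. The polymerase alpha and primase genes that start each strand lay close together per merged exon length: POLA1 at 11.4 ± 0.385, POLA2 at 9.46 ± 0.392 and the primase subunit PRIM1 at 13.4 ± 2.38 RPKM. The ratio of PRIM1 to POLA1 was 1.01 and 1.36 in replicates 1 and 2, but 1.71 with the longest transcripts. PRIM2, the other primase subunit and outside the list, stood at 9.12 ± 0.711 RPKM. POLA2 shares 35.1% of its exon bases with an overlapping gene on the same strand, so its value is uncertain.

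The widest gaps of the whole group, in both directions, were among these genes. POLE had 3861 and 2501 normalized counts, was 1.54-fold higher in replicate 1 and had an interval from -0.70 to -0.55. PRIM1 had 569 and 785, was 1.38-fold higher in replicate 2 and had an interval from 0.30 to 0.63. PRIM1 shares 14.9% of its exon bases with another gene model on its strand and also overlaps HSD17B6 and NACA, the latter on the same strand over 1.35% of its exon bases, which had 10143 and 13653 reads. POLA1, at 1468 and 1502, POLA2, at 1109 and 1122, and POLD1, at 2557 and 2515, had intervals that included equal levels. So did POLE2, at 429 and 374, with an interval from -0.41 to 0.01.

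Of the accessory subunits of these polymerases outside the list, POLD2 stood at 38.98 ± 5.77, POLD3 at 7.14 ± 0.997, POLE3 at 22.3 ± 0.4495 and POLE4 at 9.94 ± 0.4599 RPKM (SD, n = 2). POLD4 was far lower, at 0.991 ± 0.525 RPKM. It had the widest gap of the 60 other replication genes examined, at 2.36-fold higher in replicate 2, on 35 and 84 reads.

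Of the genes that finish the lagging strand, the flap nuclease FEN1 stood at 50.2 ± 3.79 RPKM and the ligase LIG1 at 17.8 ± 3.15 RPKM (SD, n = 2). FEN1 had 2605 and 2512 normalized counts with an interval that included equal levels, while LIG1 had 2622 and 2188 and was 1.199-fold higher in replicate 1. FEN1 shares 6.70% of its exon bases with TMEM258 and 1.98% with FADS2, and has 1 named pseudogene.

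Ribonucleotide reductase, the enzyme that makes deoxynucleotides, showed unequal spread in its 2 subunits. RRM2, the subunit whose level follows S phase, had 7469 and 4962 normalized counts and was 1.51-fold higher in replicate 1. RRM1, the larger subunit, had 2884 and 2935, with an interval that included equal levels. In RPKM, RRM2 stood at 57.1 ± 18.99 and RRM1 at 33.8 ± 1.264 (SD, n = 2), and the ratio of RRM2 to RRM1 was 2.03 in replicate 1 and 1.33 in replicate 2. RRM2 (chr2:10120698-10131419, plus strand, GRCh38) shares 20.2% of its exon bases with an overlapping gene on the same strand and has 3 named pseudogenes.

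The large subunits of chromatin assembly factor 1, which places histones behind the fork, were both higher in replicate 1. CHAF1A had 3241 and 2697 and CHAF1B 1076 and 758 normalized counts, with folds of 1.202 and 1.42. Per exon length CHAF1A was the higher, at 33.7 ± 6.01 against 8.75 ± 2.56 RPKM (SD, n = 2). SLBP, which binds the stem loop of replication-dependent histone messages, had 1619.8 and 1641 normalized counts and 39.1 ± 1.58 RPKM. Its interval included equal levels.

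Among the genes that control entry into S phase, CDC25A, the phosphatase that activates CDK2, stood at 28.9 ± 5.09 RPKM (SD, n = 2). The activator E2F1 stood at 19.5 ± 2.27 RPKM, and E2F2 at 1.46 ± 0.378 RPKM was the lowest of all 38 genes. The ratio of E2F1 to E2F2 was 12.2 and 14.9 per exon length. All 3 genes were higher in replicate 1. CDC25A had 2658 and 2218, E2F1 had 1049.8 and 955 and E2F2 had 188 and 139 normalized counts, and E2F2 has a wide interval, from -0.77 to -0.10, on 175 and 132 reads. Over the whole E2F family, a set added after its values were seen, E2F4, a factor mostly known as a repressor, was the highest at 29.2 ± 2.51 RPKM. Of the 8 family members, 7 were higher in replicate 1, with a median log2 difference of -0.25, and 5 had an interval that excluded equal levels, all toward replicate 1. Of the tested genes, 47.9% were higher in replicate 1 and 27.3% had such an interval toward it.

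As a list, the 38 genes leaned toward replicate 1 by a small amount. On the scale of log2(normalized count + 1), which slightly shrinks differences of low genes, the difference of replicate 2 minus replicate 1 ran from -0.63 to 0.46 with a median of -0.13. Replicate 1 was the higher library for 28 of the 38 (73.7%), against 47.9% of the 16148 genes tested (mean normalized count 10 or more). The median over all tested genes was 0.02. Among the 10045 genes within the list's own range of mean normalized count, 46.2% were higher in replicate 1 and the median was 0.03. The counting interval excluded equal levels for 19 of the 38 genes toward replicate 1 and for 4 toward replicate 2, against 27.3% and 30.8% of all tested genes. Within the list's range of mean normalized count, these shares were 31.5% and 37.1%. More reads make the interval narrower, so the shares depend on abundance. The 4 genes with an interval toward replicate 2 were MCM7, GINS1, RFC4 and PRIM1.

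Few of the differences were large. POLE and RRM2 were at least 1.5-fold higher in replicate 1, which is 5.26% of the list against 13.7% of all tested genes and 7.13% of those in the list's range of mean normalized count. RRM2, at -0.59 on the log2 scale, lay just past that fold and MCM5, at -0.53, just short of it. In the other direction 0 of the 38 reached 1.5-fold, against 12.9% of all tested genes and 741 of the 10045 in the list's range, and the largest was PRIM1 at 0.46. In either direction 0 reached 2-fold, against 10.9% of all tested genes. Within the list's range, 165 of the 10045 genes reached 2-fold toward replicate 1 and 160 toward replicate 2, so few genes in this range did. E2F2, with a mean normalized count of 164, sets the lower end of the range. Most of the 38 lay well above it, so the range is not matched to the list in abundance. There is 1 library on each side, so these counts have no replicate check and no p-value. After a correction for exon length and GC content, a choice made after the data were seen, 0 of the 38 reached 1.5-fold, with POLE at -0.49 and RRM2 at -0.57.

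**Figure D3:**
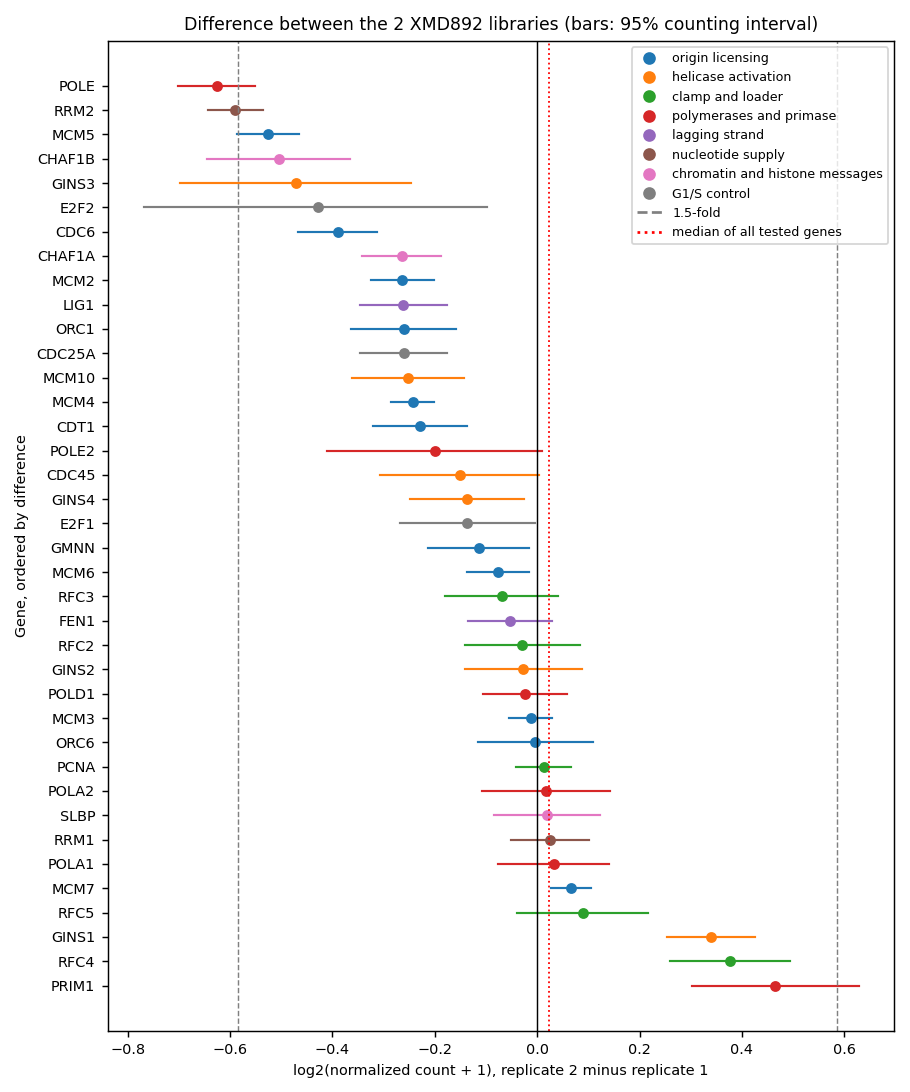
Difference of log2(normalized count + 1), XMD892 replicate 2 minus replicate 1, for each of the 38 genes, ordered by size and coloured by role. Bars are exact 95% counting intervals, dashed lines mark 1.5-fold and the dotted line is the median of all tested genes (0.02). The lowest points are POLE (-0.63) and RRM2 (-0.59) and the highest is PRIM1 (0.46).

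The lean differed among the roles, as a description. It was -0.23 in the median for the 11 licensing genes, with 10 higher in replicate 1, and -0.26 for the 3 control genes, all higher in replicate 1. It was -0.14 for helicase activation (5 of 6 higher in replicate 1), 0.01 for the clamp and its loader (2 of 5) and -0.004 for the polymerases and primase (3 of 6). It was -0.28 for RRM1 and RRM2 (1 of 2), -0.26 for the chromatin and histone message genes (2 of 3) and -0.16 for FEN1 and LIG1 (2 of 2). Summed over the list, normalized counts were 0.902 times as high in replicate 2 as in replicate 1, where the same ratio was 1.07 over all genes and 1.01 over those in the list's range. The lowest sum ratio of a role was 0.763 for RRM1 with RRM2. In bulk RNA, fewer cells in S phase and less RNA of these genes per cell cannot be told apart.

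**Figure D4:**
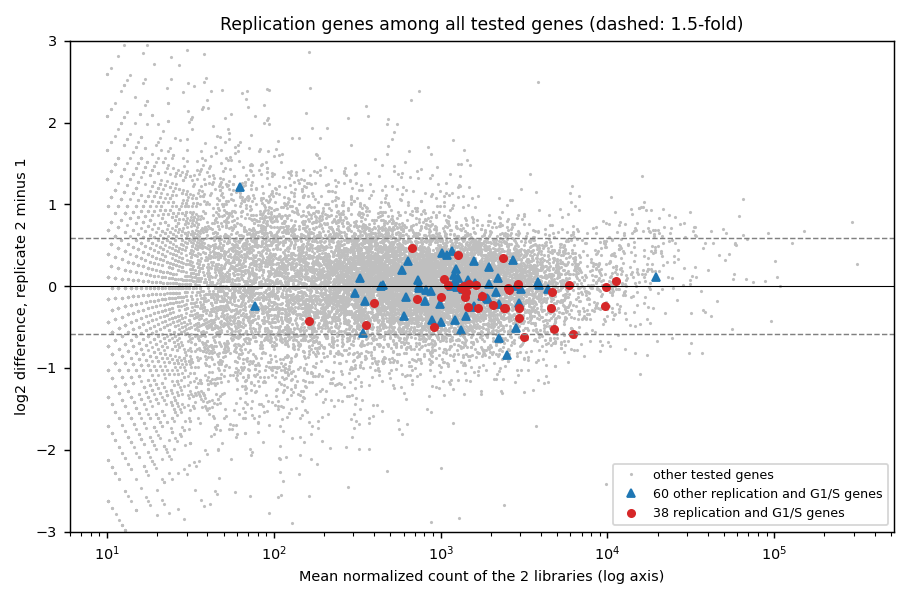
Each point is a tested gene, by its mean normalized count over both XMD892 libraries (log axis) and its log2 difference, replicate 2 minus replicate 1; 61 of the 16148 genes lie outside the plotted range of 3 on either side. The 38 genes (circles) lie between -0.63 and 0.46, and the 60 other replication and G1/S genes (triangles) between -0.84 and 1.22, where the highest is POLD4.

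The choice of scale bears on the small differences. With total reads as the scale the median of all tested genes moved from 0.02 to -0.08, so most tested genes were then higher in replicate 1. Of the 38 genes, 35 were higher in replicate 1 on that scale, a count that includes this general shift. The share of all tested genes there was not counted. Relative to the median of all tested genes, the median of the 38 was -0.15 with the authors' size factors and with total reads. Under the authors' size factors, total reads, quantile normalization and the correction for length and GC content alike, 26 genes were higher in replicate 1 and GINS1, RFC4 and PRIM1 were higher in replicate 2. The direction of the other 9 turned: MCM3, MCM7, ORC6, PCNA, RFC5, RRM1, SLBP, POLA1 and POLA2. How many of all tested genes kept their direction under these scales was not counted. Exons of 16 of the 38 genes overlap another gene, among them MCM2, which shares 22.7% of its exon bases with an antisense gene, and 5 genes have named pseudogenes.

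Other measures differed between the libraries as well, or varied with the difference. Over the 38 genes the difference had a Spearman's rho of -0.49 with exon length and -0.34 with GC content, against -0.14 and -0.09 over the 15774 tested genes with a known length, all from the same pair of libraries. After the correction for both, the median difference of the 38 was -0.14 with 27 higher in replicate 1. That correction was fitted over the 15774 genes, where both relations were weaker than in the list. The part of length and GC content in the lean was not tested. The 20 genes with an E2F match had a median difference of -0.13 (15 higher in replicate 1), and the 15 without had -0.03 (10 higher in replicate 1). Genes listed as fibroblast markers went both ways, while the 2 listed neural markers were both higher in replicate 1. Whether the libraries held such cells was not tested. Of 7 fibroblast markers, 4 were listed, and 3 of these were higher in replicate 1: COL1A1 with 7.85 and 0.99 RPKM in replicates 1 and 2, COL1A2 with 6.01 and 3.84, and PDGFRB with 0.23 and 0.11. THY1 was higher in replicate 2, with 33.7 and 64.2 RPKM, and it carried the summed level of 47.8 and 69.1 RPKM. That sum therefore mostly describes THY1, which was above 94.8% of the protein-coding genes in the table. COL3A1, LUM and DCN were not listed. Of 3 neural markers, NES had 170 and 89.7 RPKM and SOX1 0.80 and 0.56, and PAX6 was not listed. Of the 8 pluripotency markers, 4 were higher in each library, with POU5F1 2.09-fold higher in replicate 2 and DNMT3B 1.62-fold higher in replicate 1. The part of these markers in the lean was not tested.

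A further 60 genes of replication and of G1/S were examined beside the list, and all 60 were listed and tested. They did not lean as a list: 31 were higher in replicate 1 (51.7%, against 47.9% of all tested genes) and the median difference was -0.01. Their median level was 14.0 RPKM. The widest gaps toward replicate 1 (mean normalized count 50 or more) were HELLS, a chromatin remodeller, UHRF1, which guides maintenance DNA methylation, and E2F8, a repressor of the family. HELLS had 3204 and 1792 normalized counts (1.79-fold), UHRF1 had 2746 and 1763 (1.56-fold) and E2F8 had 410.1 and 274 (1.49-fold). Toward replicate 2, the widest after POLD4 were CDC7, the kinase that fires licensed origins, with 989 and 1337 (1.35-fold), and RPA3, a subunit of the single-strand binding complex, with 881 and 1169 (1.33-fold). For each of these genes the counting interval excluded equal levels. Over the 60, it did so for 19 toward replicate 1 (31.7%) and 13 toward replicate 2 (21.7%), against 27.3% and 30.8% of all tested genes.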

How the data were processed

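Poly(A) RNA of H1 cells was sequenced as paired Illumina reads, per the labels. The normalized signal values deposited by the authors are gene counts divided by 1 size factor per library: all values of both columns (100%) were whole multiples of a column's step within 0.01 reads. The recovered size factors were 0.932 and 0.948. Trimmomatic 0.36, STAR, featureCounts 1.5.3, DESeq2 1.26.0 and hg38 are named without roles, per the submitters' processing notes. Which annotation, strand setting and gene filter were used is not given in the sources used here. Of the 9 columns, 7 matched no labelled sample and were not used. No column matched the E8 samples, so the planned limma test of XMD892 against E8 was not run, and the values of the XMD892 libraries are described without p-values.

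Reads were recovered by dividing by the step. RPKM used merged exons of GENCODE release 29 (GRCh38) and recovered reads per library, 18528689 and 20217648; symbols were matched exactly. Differences used a pseudocount of 1 and a minimum of 10 for the mean normalized count. Intervals are Clopper-Pearson at 95% and cover only the counting error of independent reads, not the variation between cultures or preparations. Reads carry no molecular identifiers, so copies of a molecule cannot be told from separate molecules. The calculation was tested on simulated data. RefSeq promoters were searched by exact letters; the last 30 bases of 39 of 43 lay in a GENCODE transcript of their gene. Python 3.11.15, numpy 2.4.6, pandas 2.3.3, scipy 1.17.1 and matplotlib 3.10.9 were used.

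The members and lists were chosen with earlier results of these data known. Every member is named by role; of the other genes, the 3 widest gaps in each direction among those whose mean normalized count was 50 or more, and subunits of complexes with members.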

Additional observations from a re-analysis of the deposited data

How the results depend on the processing

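No paired analysis was possible because only libraries of the XMD892 group were matched to columns. For the same reason the planned fits of XMD892 against E8 (limma, edgeR, DESeq2, other pseudocounts and minimums, left-out replicates) were not run. The median log2 difference of the 38 genes stayed between -0.18 and -0.12 in all alternatives but one, and was -0.23 with total reads as the scale, where 4 genes were at least 1.5-fold higher in replicate 1 in place of 2. That count was 0 when 2-fold was asked, 0 after the correction for exon length and GC content, and 1 among the 20 genes without an overlapping gene or named pseudogene, of which 17 were higher in replicate 1; the 20 are fewer genes by construction. Pseudocounts of 0.5 and 5, no minimum, a minimum of 50 and quantile normalization left that count at 2. With total reads as the scale, the share of all tested genes past 1.5-fold was not counted. The median level was 31.3 RPKM with the longest transcript as the length, and 22.6 to 25.9 RPKM in each library alone. The correction for length and GC content and the set of 20 genes were chosen after seeing the data. With a single library on each side, depth limits the genes with the fewest reads most: E2F2, GINS3, POLE2 and PRIM1.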
